A study of Homo sapiens with 8 samples.

Results

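The genes described here are the chaperones of the heat shock response and the chaperones, sensors and degradation factors of the unfolded protein response. A list of 42 symbols was used, 20 of the cytosolic set (heat shock proteins, their co-chaperones, 3 mitochondrial chaperones and the heat shock factors) and 22 of the endoplasmic reticulum (ER) set. Each gene was read from the transcript cluster, the probe set of a whole gene on an exon array, whose annotation gives its symbol, and from the cluster with the highest mean over the arrays where a gene had several. Of the 42 genes, 40 had a cluster. HSPA1A and HSPA1B, near-identical neighbouring copies, share a single cluster, so that 39 of the 17881 clusters on the array were followed, 17 cytosolic and 22 of the ER. HSF2 and AHSA1 were not analysed here.

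The study used RS4;11, a human leukemia line of B-cell precursors, transduced with a control shRNA vector or with an shRNA against BTG1, an antiproliferative transcriptional co-regulator. Cells were exposed for 8 h to prednisolone, a synthetic glucocorticoid, or to vehicle, and total RNA was hybridised to human exon arrays. The 4 groups, control shRNA with vehicle, control shRNA with prednisolone, BTG1 shRNA with vehicle and BTG1 shRNA with prednisolone, held 2 arrays each, 8 in all. The study's stated comparison was prednisolone against vehicle in each cell population, and those changes between the populations. The sources used here do not give the dose of prednisolone, the number of shRNA sequences or whether a population was a clone or a pool. The labels do not say whether the 2 arrays of a group stem from separate cultures; every p-value therefore measures array-to-array spread alone, possibly a technical one.

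Heat shock proteins bind unfolded stretches of newly made or damaged proteins. HSP70 family members such as HSPA8 work with J proteins (DNAJ), which bring clients and trigger ATP hydrolysis, and with nucleotide exchange factors such as HSPH1 and BAG3. Under stress, HSF1 binds heat shock elements and raises many of these genes. In the ER, HSPA5 (BiP) is the corresponding HSP70 and holds the sensors ERN1 (IRE1), ATF6 and EIF2AK3 (PERK) inactive; unfolded proteins draw it away. ERN1 then splices XBP1 mRNA and ATF6 is cleaved, and both products raise ER chaperones and degradation genes, while EIF2AK3 slows translation and favours ATF4. B-lineage cells that become antibody-secreting plasma cells rely on XBP1.

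The arrays labelled BTG1 shRNA did not carry the markers of a B-cell precursor line. The mean log2 level of 10 B-lineage markers was 9.01 to 9.73 on the 4 control shRNA arrays and 4.29 to 4.53 on the 4 arrays labelled BTG1 shRNA, where 10 of 10 were lower under vehicle and 9 of 10 under prednisolone by the limma test used throughout. For 10 T-lineage markers the means were 4.02 to 4.63 and 8.90 to 9.21, with 9 of 10 higher under each treatment. The BTG1 cluster (annotated BTG1 and LINC01619) read 9.34 and 9.36 with vehicle and 10.51 and 10.70 with prednisolone on the control arrays, and 7.15 and 7.42, then 8.14 and 7.80, on the others. NR3C1, the glucocorticoid receptor, read 9.72, 10.24, 10.63 and 10.90 against 7.77, 7.12, 7.25 and 7.25 in the same order. The shRNA and the lineage difference cannot be told apart in any comparison across the 2 populations, and these arrays are called "labelled BTG1 shRNA" below. In such bulk RNA, fewer cells of a type and less RNA per cell cannot be told apart either. Values spread least on the first control vehicle array (interquartile range 2.95, against 3.39 to 3.8 on the other 7), and the control vehicle pair had the largest median difference between replicates (0.44, against 0.18 to 0.25 in the other groups).

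The cytosolic and ER genes hold different short elements in their promoters. The window from 250 bases before to 50 after the start was available for 40 of the 42 genes (RefSeq, GRCh38.p14), all but HSF1 and PDIA3. A heat shock element, searched on both strands as GAA, TTC and GAA or as TTC, GAA and TTC with any 2 bases between neighbours, stood in 4 of 19 cytosolic promoters (HSPA8, DNAJA1, DNAJB6, CHORDC1), in 0 of 21 ER promoters and in 0.487% of all 27305 promoters. The ER stress response element, CCAAT and CCACG with any 9 bases between them, which binds NF-Y together with ATF6 or XBP1, stood in 6 of 21 ER promoters (HSPA5, HSP90B1, CALR, CANX, XBP1, CRELD2), in 0 of 19 cytosolic promoters and in 0.0806% of all. Its second form, ATTGG and CCACG with any 1 base between them, stood in 3 ER promoters (HYOU1, SDF2L1, HERPUD1) and 0.0549% of all, and the unfolded protein response element TGACGTGG in HYOU1 alone among the members and in 0.795% of all. Any of these 3 ER motifs was found in 9 of 21 ER promoters, 0 of 19 cytosolic ones and 0.927% of all. A match of letters is a description, not evidence of a bound site. A missing match to these exact patterns in this window is not evidence that a gene lacks the element. HSPA1A, HSPA1B, HSPB1, HSPH1 and DNAJB1 were among the cytosolic genes without a match. Matches in HSP90B1, CANX, HERPUD1, CHORDC1 and DNAJA1 are not printed, nor is a further match each in HYOU1 and HSPA8. With prednisolone in control cells, CANX and HERPUD1 had positive differences (0.32 and 0.63), and HSP90B1, CHORDC1 and DNAJA1 negative ones. The stretches below are a selection from the matches. They run 5′ to 3′ along the gene's strand, with the motif in capitals; in CALR, CRELD2, HYOU1 and SDF2L1 the ER stress element reads as its reverse complement.
HSPA5 (ER stress element, chr9:125241383-125241417, minus strand): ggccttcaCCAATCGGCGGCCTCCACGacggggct
CALR (ER stress element, chr19:12938376-12938410, plus strand): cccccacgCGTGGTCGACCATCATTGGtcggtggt
CRELD2 (ER stress element, chr22:49918546-49918580, plus strand): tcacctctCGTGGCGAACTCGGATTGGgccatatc
XBP1 (ER stress element, chr22:28800595-28800629, minus strand): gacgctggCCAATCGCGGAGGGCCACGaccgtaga
HYOU1 (second form overlapping TGACGTGG, chr11:119057372-119057401, minus strand): tggccccgTGACGTGGTCCAATcccaggcc
SDF2L1 (second form, chr22:21642106-21642132, plus strand): ctcggaagCGTGGACCAATcaaaaccc
HSPA8 (heat shock element, chr11:123062171-123062199, minus strand): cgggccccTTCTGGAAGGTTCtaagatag
DNAJB6 (heat shock element, chr7:157336865-157336893, plus strand): agagccgaGAACCTTCGCGAAggtggggc

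**Figure D1:**
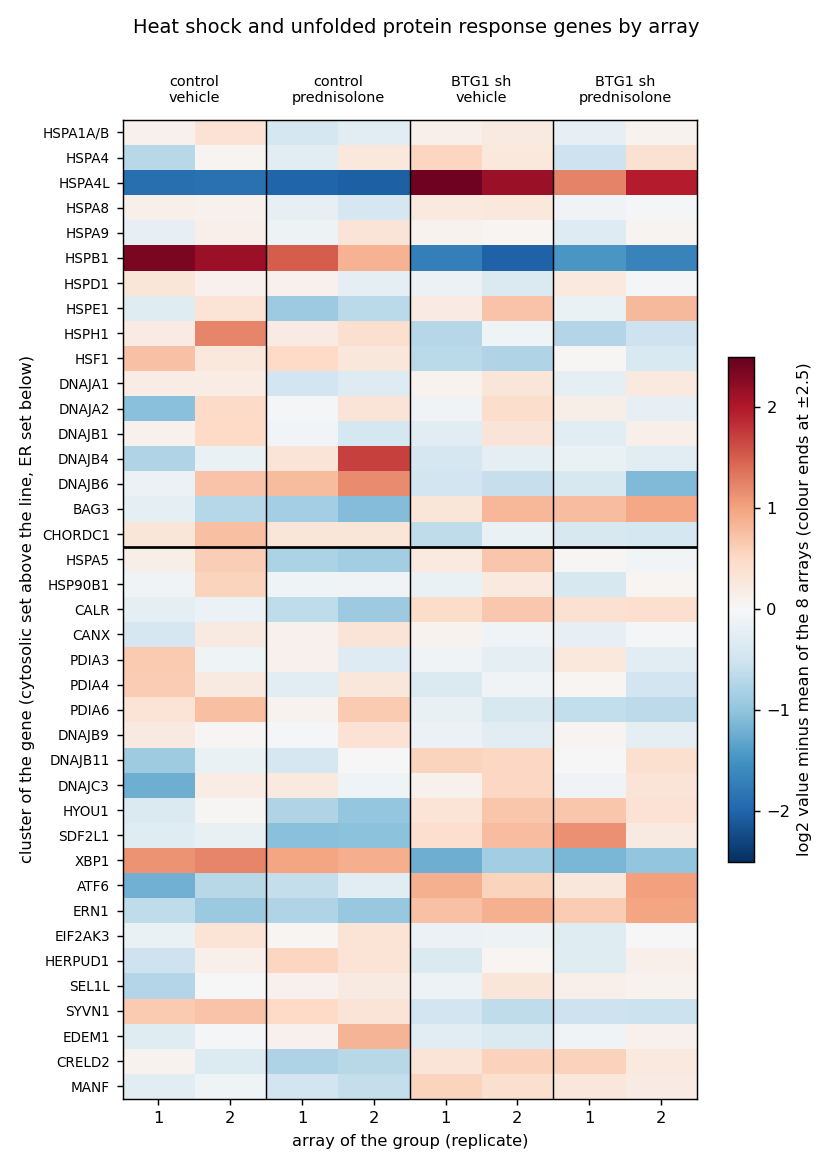
Deviation of each of the 39 clusters (rows) on each of the 8 arrays (columns) from its own mean over the arrays, on the log2 scale, with the cytosolic set above the line and the ER set below. HSPA4L and HSPB1 show the widest contrast between the 4 control and the 4 labelled BTG1 shRNA arrays, in opposite directions.

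Prednisolone in control shRNA cells left no member past the threshold of an adjusted p of 0.05 (limma, Benjamini-Hochberg over all clusters), where 1.52% of all clusters passed it. At an unadjusted p under 0.05, 2 members were higher and 9 lower, beside 1351 and 1175 of all 17881 clusters. The 2 prednisolone arrays lay wholly below the 2 vehicle arrays for 18 of 39 members and wholly above for 6, while 26.4% and 15.3% of all clusters did so. The median log2 difference was -0.23 over the members and -0.16 over all clusters. Quantile normalization moved these medians to -0.35 and -0.05, and centring each array to -0.11 and -0.04. Without the second control vehicle array they were -0.19 and -0.26, so which of them was lower rested on that array.

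The ER chaperone HSPA5 (cluster 3225398) had the smallest p of the members in that comparison. It read 8.12 and 8.58 on the vehicle arrays and 7.18 and 7.10 on the prednisolone arrays of control cells. Both prednisolone arrays were lower by more than the vehicle arrays differed from each other, a difference of -1.21 (SE 0.23, 95% interval -1.75 to -0.68) with an adjusted p of 0.0557 (limma). The call changed with the processing: HSPA5 passed in 3 of 14 alternatives and did not in 11, among them centring and array weights. Adjusted p was 0.0235 after quantile normalization, where the difference was -1.32. It was 0.0446 with the dimmest clusters, those in the lowest 25% by mean, left out. The third alternative was the replicate block reported at the end. CALR, HYOU1 and SDF2L1, whose promoter stretches are printed above, lay in the same direction without passing. CALR, a lectin chaperone, read 10.76 and 10.84, then 10.34 and 10.07, a difference of -0.60 (SE 0.18, adjusted p 0.206). HYOU1, a large HSP70-like nucleotide exchange factor of the ER, read 8.59 and 8.98, then 8.20 and 7.98 (-0.70, SE 0.23, adjusted p 0.245). SDF2L1, which works with the ER J protein DNAJB11, read 5.98 and 6.10, then 5.24 and 5.26 (-0.79, SE 0.30, adjusted p 0.306). The arrays of the 2 treatments did not overlap for any of these 4 genes. For HSP90B1 (GRP94, the HSP90 of the ER; cluster annotated HSP90B1 and HSP90B3P) they did, with 10.88 and 11.53, then 10.86 and 10.88, a difference of -0.34 (SE 0.28, adjusted p 0.513). Of the 14 ER chaperones and folding enzymes, 10 had a negative difference and the median was -0.36, while 11854 of all 17881 clusters were negative. The 4 positive among the 14 were CANX (0.32) and the ER J proteins DNAJB9 (0.02), DNAJB11 (0.34) and DNAJC3 (0.59), with overlapping arrays.

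The ER members were also divided by promoter for the same comparison, as a description. The 9 ER genes with an ER stress motif had a median difference of -0.60 and 7 negative values, from -1.21 to 0.63. The 12 without such a motif had a median of 0.07 and 5 negative values, from -0.43 to 0.65. In the other comparisons the medians with and without a motif were -0.03 and -0.01 for prednisolone on the arrays labelled BTG1 shRNA, 0.10 and 0.15 between the populations under vehicle, and 0.82 and -0.14 between them under prednisolone. The last shares its control prednisolone arrays with the first comparison. HERPUD1, a degradation factor of the ER membrane with the second form of the motif, had the highest value of the 9 with prednisolone in control cells: it read 8.44 and 9.09 with vehicle and 9.51 and 9.30 with prednisolone (0.63, SE 0.28, adjusted p 0.370).

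Neither the sensors of the unfolded protein response nor XBP1 passed with prednisolone in control cells. ATF6 differed by 0.52 (SE 0.31, adjusted p 0.464), EIF2AK3 by 0.11 (SE 0.23, adjusted p 0.768), ERN1 by -0.07 (SE 0.21, adjusted p 0.838) and XBP1 by -0.23 (SE 0.19, adjusted p 0.511). EIF2AK3 read 6.42 and 6.94, then 6.64 and 6.94, so its groups overlapped. Of the 4 ER degradation genes, 3 had prednisolone arrays wholly above the vehicle arrays, beside 15.3% of all clusters. These were HERPUD1, SEL1L (0.53, adjusted p 0.413, limma) and EDEM1 (0.65, adjusted p 0.336). SYVN1, the ubiquitin ligase that works with SEL1L, lay below at -0.27 (adjusted p 0.474). Of 35 other ER folding and degradation genes, 6 lay wholly above and 8 wholly below, beside 15.3% and 26.4% of all clusters.

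In the cytosolic set, 12 of 17 clusters had a negative difference with prednisolone in control cells, beside 11854 of all 17881, with a median of -0.28. HSPA8, the constitutive HSP70, read 13.10 and 13.09, then 12.77 and 12.57 (-0.43, SE 0.17, adjusted p 0.319). The shared cluster of HSPA1A and HSPA1B, the stress-inducible HSP70 copies, read 6.57 and 6.82, then 6.03 and 6.19 (-0.59, SE 0.19, adjusted p 0.235); which copy the signal came from is uncertain. HSPH1, an HSP110 exchange factor, overlapped between treatments, with 8.58 and 9.59, then 8.58 and 8.77 (-0.41, SE 0.35, adjusted p 0.517). HSF1 also overlapped, with 8.41 and 7.95, then 8.17 and 7.97 (-0.11, SE 0.23, adjusted p 0.769). HSPB1, a small heat shock protein that holds unfolded clients, read 9.81 and 9.60, then 8.97 and 8.34 (-1.05, SE 0.25, adjusted p 0.112). The J protein DNAJB4 had the largest positive value, 1.46 (SE 0.42, adjusted p 0.179), from 3.53 and 4.10 with vehicle to 4.59 and 5.98 with prednisolone. Its 2 prednisolone arrays differed by more than its vehicle arrays, and without the first of them the difference was 2.16 (adjusted p 0.0423).

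**Figure D2:**
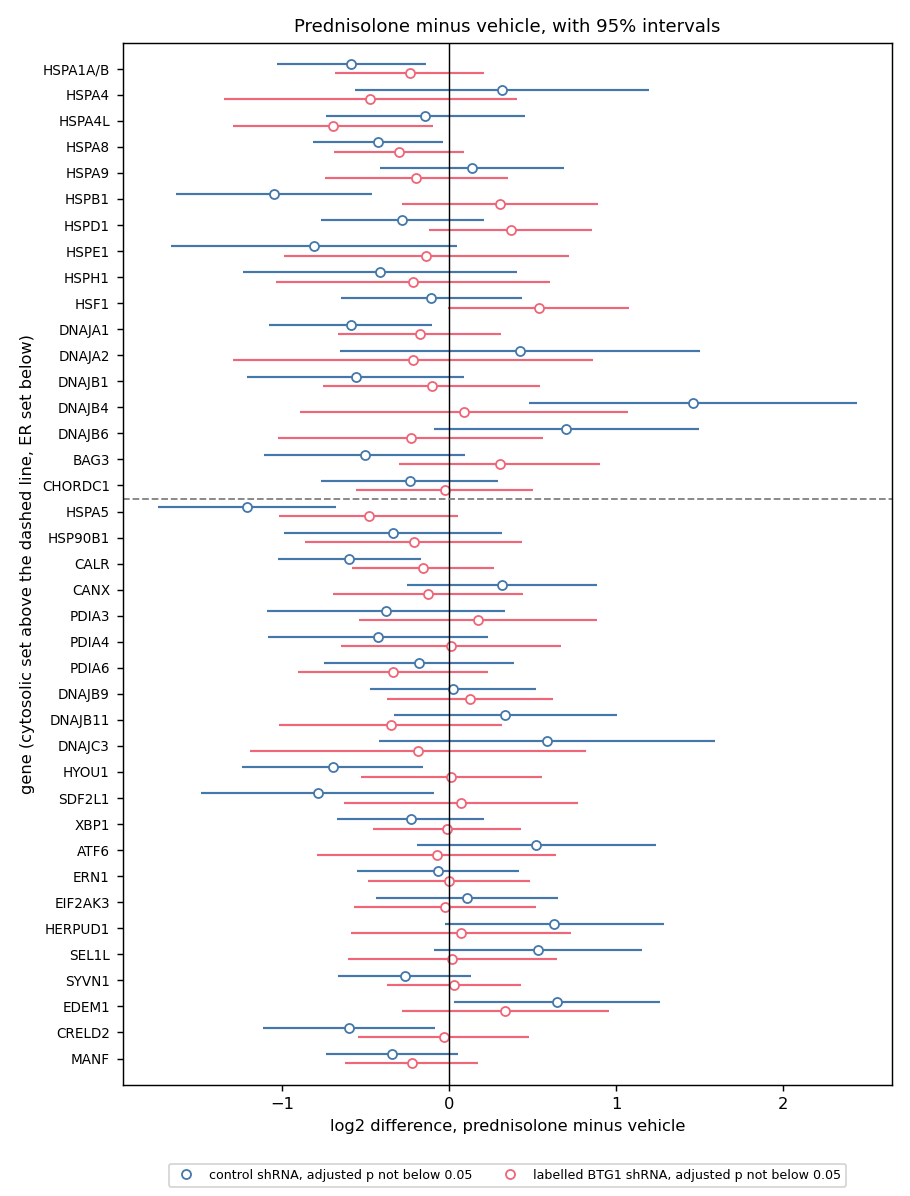
Log2 difference, prednisolone minus vehicle, of each member in control cells and on the arrays labelled BTG1 shRNA, with the 95% interval from limma; open circles have an adjusted p of 0.05 or above. All 39 members have open circles in both populations, and HSPA5 lies at -1.21 in control cells.

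Outside the listed genes, 3 wider lists were counted for that comparison. Of 25 genes of the PERK arm and the integrated stress response, 4 rose with prednisolone in control cells and 0 fell. Of all clusters, 0.928% rose. The median difference of the 25 genes was 0.43, with 20 positive and 5 negative. At an unadjusted p under 0.05, 9 of them were higher and 1 lower. ATF4 itself was among the negative ones, its prednisolone arrays wholly below its vehicle arrays (-0.55, adjusted p 0.285, limma). ASNS differed by -0.12 (adjusted p 0.788) and CHAC1, another gene of this list, by 0.24 (adjusted p 0.645). DDIT3 (CHOP), a transcription factor of late ER stress, read 5.24 and 5.57 with vehicle and 7.05 and 7.30 with prednisolone, a rise of 1.77 (adjusted p 0.00678, limma). DDIT4, an inhibitor of mTORC1 that glucocorticoids also induce, rose by 2.46 (adjusted p 0.00921). SLC7A11, the cystine transporter, rose by 2.99 (adjusted p 0.0126), and SESN2, a leucine sensor, by 1.17 (adjusted p 0.0288). All 4 calls were lost without the second control prednisolone array, with adjusted p of 0.0828, 0.0694, 0.0719 and 0.252 in that order. SLC7A11 was also lost without the first control vehicle array (0.0512), and SESN2 without any of the other prednisolone arrays or either vehicle array labelled BTG1 shRNA (0.0726 to 0.109). Among 33 other cytosolic chaperones only FKBP5, a known glucocorticoid target, rose, and 0 fell; its call was lost when the second control prednisolone array was left out (adjusted p 0.130). Among 35 other ER folding and degradation genes 0 passed, with 2 higher and 6 lower at an unadjusted p under 0.05, beside the 1351 and 1175 of all clusters given above.

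On the arrays labelled BTG1 shRNA, prednisolone left 0 members and 0.0% of all clusters past the threshold (limma). At an unadjusted p under 0.05, 0 members were higher and 1 lower, against 125 and 61 of all clusters. The member was HSPA4L, an HSP110-type chaperone, at -0.70 (SE 0.26, adjusted p 1): it read 7.14 and 6.87 with vehicle and 5.94 and 6.67 with prednisolone. Non-overlapping arrays were counted for 4 members upward and 8 downward, beside 18% and 10.5% of all clusters. HSPA5 read 8.21 and 8.66, then 7.99 and 7.91 (-0.48, SE 0.23, adjusted p 1). HSF1 read 7.01 and 6.92, then 7.71 and 7.29 (0.54, SE 0.23, adjusted p 1), with no overlap. HERPUD1 read 8.61 and 9.01, then 8.66 and 9.10 (0.07, SE 0.28), and EIF2AK3 6.45 and 6.46, then 6.28 and 6.58 (-0.03, SE 0.23). HSPA8 read 13.22 and 13.24, then 12.90 and 12.96 (-0.30, SE 0.17), and the HSPA1A and HSPA1B cluster 6.59 and 6.69, then 6.26 and 6.55 (-0.24, SE 0.19). HSPH1 read 7.66 and 8.27, then 7.64 and 7.86 (-0.22, SE 0.35), and HSP90B1 10.80 and 11.22, then 10.57 and 11.02 (-0.21, SE 0.28). Of the 14 ER chaperones and folding enzymes, 9 had a negative difference here and the median was -0.14.

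The difference of the prednisolone effect between the 2 populations was itself tested as an interaction. By limma 0 members and 0.134% of all clusters passed (0.028% higher, 0.106% lower), and 1 member was higher and 0 lower at an unadjusted p under 0.05, beside 763 and 901 of all 17881 clusters. That member was HSPB1, with an interaction of 1.36 (SE 0.36, adjusted p 0.334). HSPA5 had an interaction of 0.73 (SE 0.32, adjusted p 0.537), so its difference of -1.21 in control cells and of -0.48 on the other arrays were not shown to differ.

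**Figure D3:**
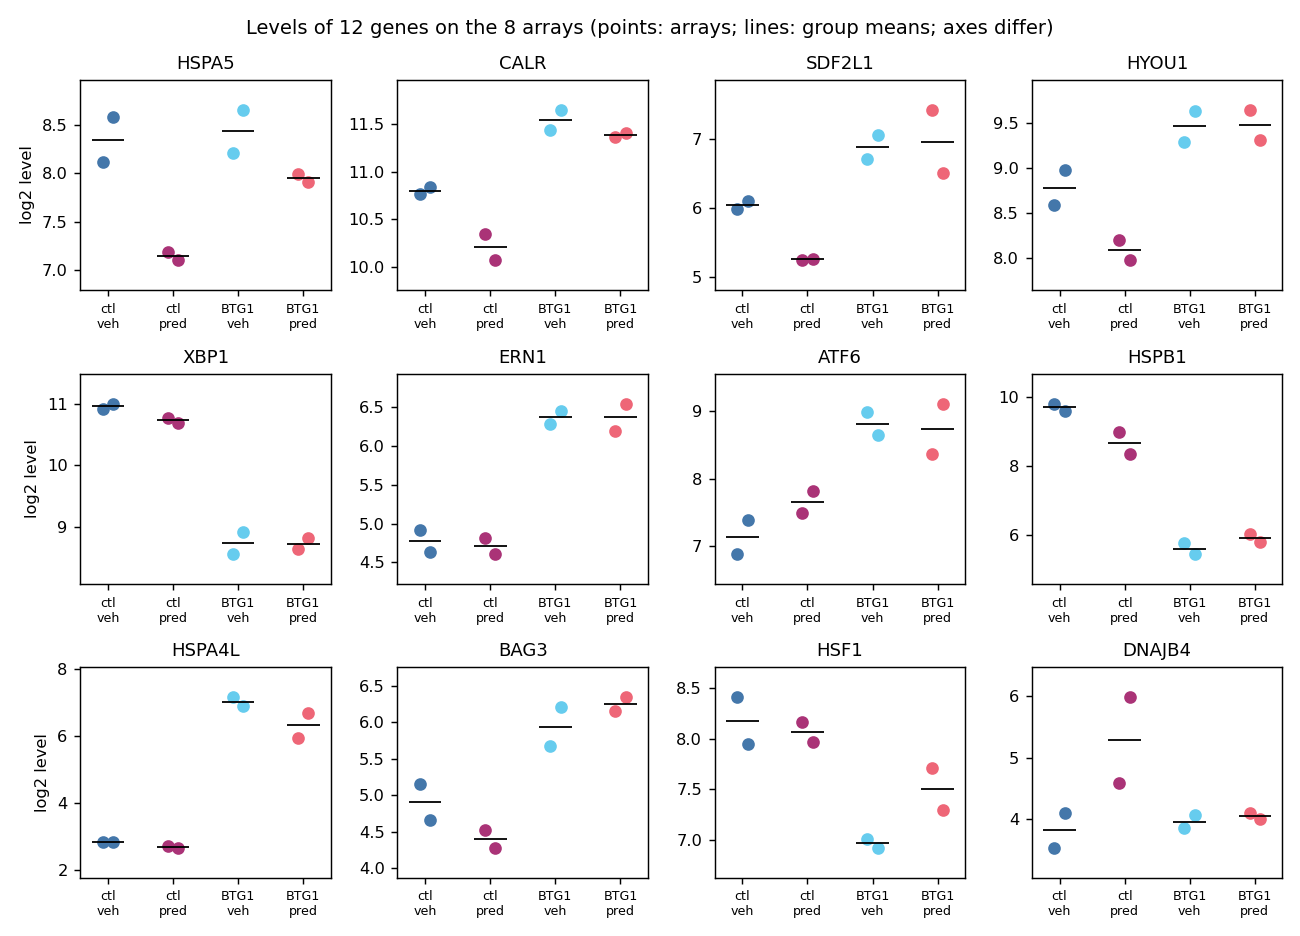
Log2 level of selected members on each array, in the 4 groups; each point is an array and each bar the group mean of 2 arrays. The HSPA5 values of control cells with prednisolone, 7.18 and 7.10, are the lowest of its 8.

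Under vehicle, the arrays labelled BTG1 shRNA differed from the control arrays in 12 of 39 members, 7 higher and 5 lower, where 14.7% of all clusters passed (8.46% higher, 6.21% lower). After quantile normalization 12 members also passed, 5 higher and 7 lower. Under prednisolone 14 members differed, 9 higher and 5 lower, where 17.5% of all clusters passed (10% higher, 7.51% lower). Arrays of the 2 populations did not overlap for 12 members upward and 11 downward under vehicle, beside 24.5% and 34.3% of all clusters, and for 14 and 12 under prednisolone, beside 28.4% and 21.5%. The 2 comparisons share no array, and 8 members passed in both, all 8 in the same direction: HSPA4L, BAG3, CALR, ERN1 and MANF were higher, and HSPB1, XBP1 and SYVN1 lower. Of all clusters, 1872 passed in both and 1857 of these had the same direction. The lineage markers given above moved with these differences, and their part in them was not tested.

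Cytosolic members held the widest differences. HSPA4L (cluster 2742935) read 2.82, 2.83, 2.71 and 2.66 on the control arrays, vehicle first, and 7.14, 6.87, 5.94 and 6.67 on those labelled BTG1 shRNA. The difference was 4.18 under vehicle (SE 0.26, adjusted p 5.02e-05) and 3.62 under prednisolone (SE 0.26, adjusted p 8.09e-05). The control readings lie among the dimmest clusters of their arrays (percentile 4.4 to 8.1), so the size of the difference depends on the background there. HSPB1 (cluster 3009399) went the other way, from 9.81, 9.60, 8.97 and 8.34 to 5.75, 5.44, 6.01 and 5.79. It was lower by 4.11 on the log2 scale under vehicle (difference -4.11, SE 0.25, adjusted p 5.00e-05) and differed by -2.76 under prednisolone (SE 0.25, adjusted p 0.000269). No array of one population overlapped the other for either gene. BAG3, which couples HSP70 to small heat shock proteins and autophagy, read 5.15, 4.66, 4.52 and 4.28 against 5.67, 6.21, 6.15 and 6.34, higher by 1.04 (SE 0.26, adjusted p 0.0341) and 1.85 (SE 0.26, adjusted p 0.00216).

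HSF1 (cluster 3120358) was lower under vehicle by a difference of -1.22 (SE 0.23, adjusted p 0.0113), while under prednisolone the difference was -0.57 (SE 0.23, adjusted p 0.157). Its vehicle call was lost without either vehicle array labelled BTG1 shRNA (adjusted p 0.0636 and 0.0907). The J protein DNAJB6, which keeps aggregation-prone proteins soluble (cluster annotated DNAJB6 and TMEM135), read 7.87, 8.73, 8.81 and 9.19 on the control arrays. On the arrays labelled BTG1 shRNA it read 7.54, 7.43, 7.60 and 6.91, lower under prednisolone (-1.75, SE 0.34, adjusted p 0.0104) and at -0.81 under vehicle (adjusted p 0.169). CHORDC1, an HSP90 co-chaperone, was read from a cluster also annotated to LPIN2 and CHORDC1P4, with 7.48, 7.93, 7.47 and 7.47 against 6.55, 7.0, 6.77 and 6.73. Its vehicle call (-0.93, SE 0.23, adjusted p 0.0323) did not hold in the cluster annotated to CHORDC1 alone, where the difference was 0.36 (adjusted p 0.739). The DNAJB6 call was lost without the second prednisolone array of either population (0.0779 and 0.0688). The BAG3 call under vehicle was lost without the second vehicle array of either population or any prednisolone array (0.0548 to 0.243), and that of CHORDC1 without any single array but the first control vehicle array (0.0549 to 0.217). HSPA8 (0.13 and 0.26), the HSPA1A and HSPA1B cluster (-0.05 and 0.30) and HSPH1 (-1.12 and -0.93) did not pass under either treatment, with adjusted p of 0.0778 to 0.845. HSPH1 passed in 4 of 14 alternatives under vehicle (0.0118 to 0.0441), among them quantile normalization (-1.32, 0.0249) and the fit without the first control vehicle array (-1.63, 0.0118), and in 4 of 14 under prednisolone (0.0211 to 0.0321).

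**Figure D4:**
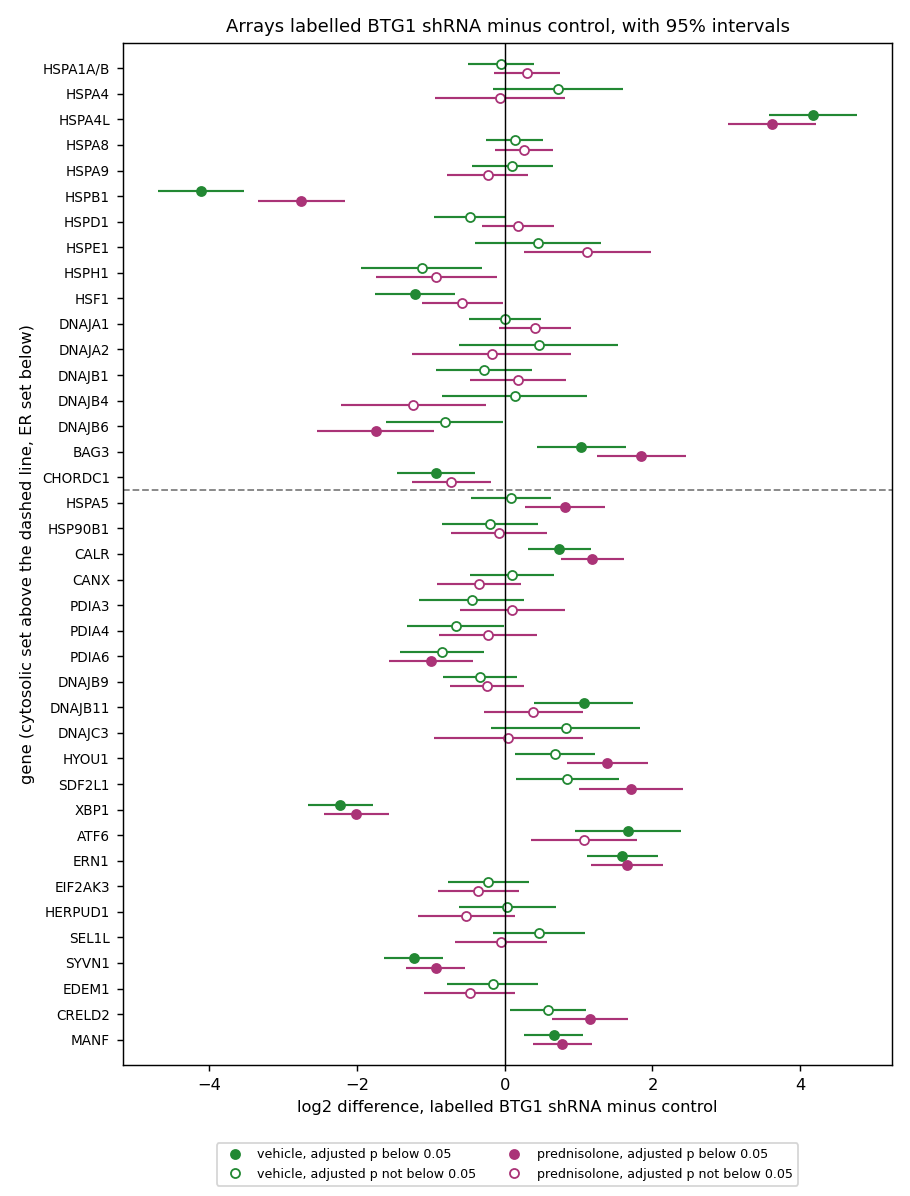
Log2 difference, labelled BTG1 shRNA minus control, of each member under vehicle and under prednisolone, with the 95% interval from limma; filled circles have an adjusted p below 0.05. HSPA4L lies at 4.18 and 3.62, HSPB1 at -4.11 and -2.76, and XBP1 at -2.23 and -2.01.

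XBP1 and its splicing kinase lay in opposite directions between the populations. XBP1 (cluster 3956589) read 10.92, 11.00, 10.77 and 10.69 on the control arrays and 8.56, 8.91, 8.64 and 8.81 on those labelled BTG1 shRNA. It differed by -2.23 under vehicle (SE 0.19, adjusted p 0.000228) and -2.01 under prednisolone (SE 0.19, adjusted p 0.000306). The kinase ERN1 (cluster 3766651) lay the other way, at 4.92, 4.63, 4.81 and 4.61 against 6.28, 6.45, 6.19 and 6.54, higher by 1.59 (SE 0.21, adjusted p 0.00176) and 1.66 (SE 0.21, adjusted p 0.00128). ATF6 (cluster 2363919) read 6.89, 7.39, 7.5 and 7.82 against 8.98, 8.64, 8.36 and 9.11. It was higher under vehicle by 1.67 (SE 0.31, adjusted p 0.00934) and missed the threshold under prednisolone at 1.07 (SE 0.31, adjusted p 0.0507), where 7 of 14 alternatives brought it past (adjusted p 0.0229 to 0.0372). Without the first vehicle array labelled BTG1 shRNA the ATF6 call under vehicle was lost (adjusted p 0.0714). EIF2AK3 differed by -0.22 and -0.36 (adjusted p 0.505 and 0.438). Cluster levels do not separate the spliced and unspliced forms of XBP1. Of 7 plasma cell markers, 3 were lower under vehicle and 2 under prednisolone, and their median differences were -0.62 and -0.03. IRF4, a factor of B and plasma cells, differed by -4.51 and -3.88, while JCHAIN and TNFRSF17 read at most 2.68 on every array and MZB1 differed by 0.08 and 0.53; their part in the XBP1 difference was not tested.

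Of the 14 ER chaperones and folding enzymes, 3 were higher and 0 lower on the arrays labelled BTG1 shRNA under vehicle. Of all clusters, 8.46% were higher and 6.21% lower. Under prednisolone 6 of the 14 were higher and 1 lower, beside 10% and 7.51% of all clusters. These shares were not tested against each other. CALR (cluster 3822049) read 11.44, 11.65, 11.36 and 11.41 on the arrays labelled BTG1 shRNA. It was higher by 0.74 (SE 0.18, adjusted p 0.0332, limma) and 1.18 (SE 0.18, adjusted p 0.00349). HYOU1 read 9.29, 9.64, 9.65 and 9.31, higher under prednisolone by 1.39 (SE 0.23, adjusted p 0.00516), with 0.68 under vehicle (adjusted p 0.103). SDF2L1 read 6.71, 7.06, 7.42 and 6.50, higher under prednisolone by 1.71 (SE 0.30, adjusted p 0.00641), with 0.85 under vehicle (adjusted p 0.112). CRELD2, a secreted ER stress protein, read 6.43, 6.0, 5.58 and 5.65 on the control arrays and 6.68, 6.92, 6.93 and 6.60 on the others. It was higher under prednisolone by 1.15 (SE 0.22, adjusted p 0.00938), with 0.59 under vehicle (adjusted p 0.133). HSPA5 was higher under prednisolone by 0.82 (SE 0.23, adjusted p 0.0478), and at 0.09 under vehicle (adjusted p 0.796). HSP90B1 lay at -0.20 and -0.07 (adjusted p 0.619 and 1). The interaction test above did not show that any of these differences changed with prednisolone.

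MANF, a neurotrophic factor retained in the ER with HSPA5, read 9.0, 9.14, 8.78 and 8.66 against 9.81, 9.65, 9.54 and 9.47, higher by 0.66 (SE 0.17, adjusted p 0.0390) and 0.78 (SE 0.17, adjusted p 0.0171). DNAJB11, the ER J protein, read 7.86, 8.58, 8.34 and 8.77 against 9.31, 9.28, 8.74 and 9.15, higher under vehicle by 1.07 (SE 0.29, adjusted p 0.0453), with 0.39 under prednisolone (adjusted p 0.523). PDIA6, a protein disulfide isomerase, read 11.22, 11.62, 10.96 and 11.52 against 10.68, 10.47, 10.26 and 10.22. PDIA6 was lower under prednisolone (-1.0, SE 0.24, adjusted p 0.0279), with -0.85 under vehicle (adjusted p 0.0591). The degradation ligase SYVN1 (HRD1) read 8.22, 8.28, 8.08 and 7.89 against 7.10, 6.93, 7.05 and 7.04, lower at -1.23 (SE 0.17, adjusted p 0.00245) and -0.94 (SE 0.17, adjusted p 0.00788). Its partners HERPUD1 (0.04 and -0.52), SEL1L (0.46 and -0.05) and EDEM1 (-0.16 and -0.47) did not pass, with adjusted p of 0.282 to 1.

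Several ER calls between the populations lay near the threshold and were lost when an array was left out, also an array outside the comparison, which alters only the estimate of the spread. Under vehicle, CALR, DNAJB11 and MANF were lost without the first control vehicle array, either vehicle array labelled BTG1 shRNA or any prednisolone array (adjusted p 0.0517 to 0.250). Their differences then stayed at 0.64 to 0.85 for CALR, 0.58 to 0.74 for MANF and 0.72 to 1.09 for DNAJB11. Under prednisolone, HSPA5 was lost without any array but a control vehicle array (0.0630 to 0.221), with differences of 0.78 to 0.86. MANF was lost there without any of the 4 prednisolone arrays (0.0646 to 0.128). CRELD2 was lost without either control prednisolone array or the first one labelled BTG1 shRNA (0.0553 to 0.0757). SYVN1 was lost without the first control prednisolone array or either one labelled BTG1 shRNA (0.0540 to 0.0615). PDIA6 was lost without any array labelled BTG1 shRNA or the second control prednisolone array (0.0529 to 0.191).

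Another 15 members passed in no comparison: HSPA4, HSPA9 (annotated with SNORD63), HSPD1, HSPE1, DNAJA1, DNAJA2, DNAJB1 and DNAJB4 of the cytosolic set, and CANX, PDIA3 (annotated with CATSPER2P1 and CATSPER2), PDIA4, DNAJB9, DNAJC3, SEL1L and EDEM1 of the ER set. Between the populations their differences ran from -0.66 (PDIA4) to 0.82 (DNAJC3) under vehicle and from -1.24 (DNAJB4) to 1.12 (HSPE1) under prednisolone. HSPE1, the co-chaperonin of mitochondrial HSPD1, read 6.04 and 6.28 on the control arrays and 6.80 and 7.76 on the others under prednisolone (SE 0.37, adjusted p 0.0811). With prednisolone the 15 ran from -0.81 (HSPE1) to 1.46 (DNAJB4) in control cells and from -0.47 (HSPA4) to 0.37 (HSPD1) on the arrays labelled BTG1 shRNA. In all, 18 of 39 clusters passed in at least 1 comparison, and 21 in none. The matching count over all clusters is not given here, so these numbers do not show an enrichment of the members. Of all clusters, 14.7% passed between the populations under vehicle and 17.5% under prednisolone, with 1872 passing in both.

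The 3 wider lists were counted between the populations too, where 14.7% of all clusters passed under vehicle and 17.5% under prednisolone. The shares of each list that passed were not tested against these. Of 33 other cytosolic chaperones, 4 were higher and 0 lower under vehicle, and 5 higher and 1 lower under prednisolone; FKBP4, a co-chaperone of steroid receptors with HSP90, was higher by 2.16 and 3.15 (adjusted p 0.00108 and 0.000156, limma). Of 35 other ER folding and degradation genes, 4 were higher and 2 lower, then 3 higher and 3 lower. FKBP14, a prolyl isomerase of the ER, was higher by 2.32 and 2.14, PDIA5 by 1.46 and 1.91, and CREB3L2, a membrane-tethered factor of secretory cells, differed by -2.03 and -2.65. Of 25 PERK arm genes, 3 were higher and 2 lower, then 1 higher and 5 lower. ASNS, asparagine synthetase, was higher by 1.81 and 2.17 under vehicle and prednisolone. DDIT3 read 4.95, 4.90, 5.09 and 5.17 on the arrays labelled BTG1 shRNA, a difference of -2.05 from control under prednisolone (adjusted p 0.000295). The calls named for these 3 lists between the populations held without any single array. Several other calls counted for these lists did not, among them BAG2 and SEC61A1 under vehicle. Under prednisolone TRAP1, HSPBP1, DERL1 and PPP1R15A were such calls, so the counts rest in part on them. With prednisolone on the arrays labelled BTG1 shRNA, 0 genes of these lists passed by limma. At an unadjusted p under 0.05, 8 of the 25 PERK arm genes were higher and 0 lower, beside 125 and 61 of all clusters, and SLC7A11 had the largest difference at 2.73 (adjusted p 1). In the other 2 lists 0 genes were below that p in either direction.

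Cytosolic and ER sets were then set beside each other by the median deviation of their clusters from each cluster's own mean over the 8 arrays. The cytosolic median was 0.11 and 0.27 on the control vehicle arrays, -0.07 and 0.27 with prednisolone, -0.08 and 0.23 on the vehicle arrays labelled BTG1 shRNA, and -0.20 and -0.02 with prednisolone. The ER median was -0.24 and 0.03, then -0.08 and -0.04, then -0.01 and 0.28, then 0.04 and 0.10 in the same order. The gap of cytosolic over ER was above 0 on each control array, from 0.01 to 0.35, and below 0 on each array labelled BTG1 shRNA, from -0.24 to -0.05. Each cluster was centred on its mean over both populations, which links the 2 sides, so their opposite signs are not separate observations. For medians the centring does not by itself fix the sign on each array. No p is given for these medians, since the members are not replicates.

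**Figure D5:**
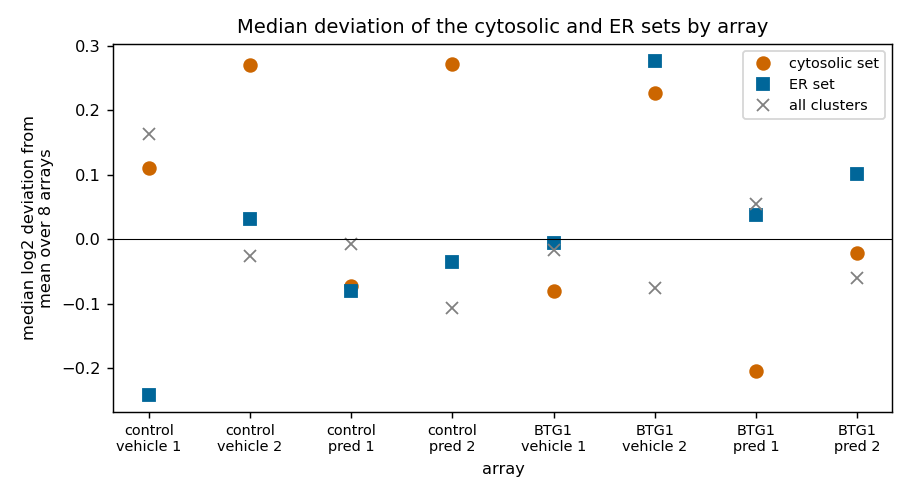
Median deviation, on the log2 scale, of the cytosolic clusters and of the ER clusters on each of the 8 arrays, by group. The cytosolic median lies above the ER median on the 4 control arrays and below it on the 4 arrays labelled BTG1 shRNA, sides that the centring over all 8 arrays ties to each other.

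As medians of the fitted differences, both sets were negative with prednisolone in control cells, at -0.28 for the cytosolic and -0.21 for the ER clusters, beside -0.16 for all clusters. On the arrays labelled BTG1 shRNA they were -0.18 and -0.02, beside 0.03 for all clusters. Without the second vehicle array they were 0.09 and 0.05, so the sign of both rested on that array, and without the first prednisolone array they were -0.01 and -0.04. Between the populations the medians were 0.00 and 0.09 under vehicle, beside -0.15 for all clusters, and -0.07 and 0.00 under prednisolone, beside 0.04. The calls between the populations came from both: under vehicle 2 cytosolic clusters were higher and 3 lower, and 5 ER clusters higher and 2 lower. Under prednisolone the counts were 2 and 2, and 7 and 3. The sets held 17 cytosolic and 22 ER clusters. Of all clusters, 8.46% were higher and 6.21% lower under vehicle, and 10% and 7.51% under prednisolone. Several of the calls counted were lost when an array was left out, as given above. After quantile normalization the vehicle medians were -0.20 and -0.08, so their sign depended on the scaling.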

How the data were processed

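The deposited series table holds, for 8 Affymetrix human exon arrays, log2 values of the authors' RMA processing in Partek, per the submitters' processing notes, over the core transcript clusters of hg18, per the labels. Their scale, log2, is not stated there and was inferred from the range. Most values in the deposited table had lost the decimal point: of 143048, 153 kept it. It was put back behind the first digit, and in values starting with 1 behind the second (2831 values). Restored values ran from 2.16 to 13.4, and correlations between arrays went from 0.446 to 0.587 as deposited to 0.872 to 0.995. The authors' deposited file gave no other unit, so no count or intensity was used, and the number of arrays limits the precision. Gene names came from the platform annotation, where 14432 clusters have 1 symbol, 2408 several and 1041 none; 33 of the 39 member clusters have 1 symbol. Of the table's columns, 0 were left out.

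Group means over all 8 arrays were fitted with limma 3.58.1 in R 4.3.3 (lmFit, eBayes; 4 residual and 3.51 prior degrees of freedom), without filter or replicate block, two-sided, with Benjamini-Hochberg adjustment over 17881 clusters in each of 5 comparisons. The procedure was run on simulated data with independent noise of the same spread in every group. Replicates here spread unequally between groups, so that run does not show the error rate on these arrays. Members and lists were chosen with earlier results of these data known. Values on all arrays are given for members past the threshold in any comparison and for 11 central genes with a cluster, other members by range and counts, and of each wider list at most 4 genes per direction. Alternatives were quantile normalization, centring, leaving out dim clusters, array weights, a replicate block, only the arrays of a comparison, clusters of 1 symbol, and leaving out each array.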

Additional observations from a re-analysis of the deposited data

Results flagged for a closer look

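HSPB1 and HSPD1 were flagged because their prednisolone arrays lay wholly below the vehicle arrays in control cells and wholly above them on the arrays labelled BTG1 shRNA. Of all clusters, 26.4% lay wholly below in control cells and 18% wholly above on the other arrays. How many did both was not counted, so the flag does not set these members apart. The nearest readings were close, 6.87 and 6.86 for HSPD1 in control cells and 5.75 and 5.79 for HSPB1 on the others. HSPB1 read 9.81 and 9.60 with vehicle and 8.97 and 8.34 with prednisolone in control cells, and 5.75 and 5.44, then 6.01 and 5.79, on the arrays labelled BTG1 shRNA. The difference between the effects was 1.36 (95% interval 0.52 to 2.19, adjusted p 0.334, limma interaction), which did not pass. HSPD1 read 7.06 and 6.87, then 6.86 and 6.52, in control cells, and 6.62 and 6.39, then 7.01 and 6.73, on the others, with a difference between the effects of 0.65 (adjusted p 0.537), which did not pass either.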

How the results depend on the processing

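Of the 12 members that passed between the populations under vehicle, HSPA4L, HSPB1, XBP1, ERN1 and SYVN1, 5 in all, passed under every alternative run; under prednisolone 8 of 14 did, HSPA4L, HSPB1, BAG3, CALR, HYOU1, SDF2L1, XBP1 and ERN1. The vehicle count was 7 with array weights, 7 with only the arrays of the comparison, and 6 to 14 with an array left out; the prednisolone count was 9 to 17 with an array left out. With prednisolone in control cells, 1 member passed after quantile normalization, 1 with the dimmest clusters left out and 0 to 1 with an array left out, against 0. CHORDC1 reversed from -0.93 to 0.36 under vehicle with its cluster of 1 symbol. Over the single members followed, an alternative took a call away in 79 cases and gave one to a member that had not passed in 43. The cause was not tested in these cases.

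The median of the cytosolic clusters minus that of the ER clusters was -0.07 for prednisolone in control cells, -0.22 with clusters of 1 symbol and -0.207 to -0.0534 with an array left out. On the arrays labelled BTG1 shRNA it was -0.16 (-0.156 to 0.0437). Between the populations it was -0.09 under vehicle (-0.297 to -0.0731) and -0.07 under prednisolone (-0.387 to 0.0170, and 0.0525 with clusters of 1 symbol). For the interaction it was 0.10 (0.0156 to 0.339), with 0.28 after quantile normalization and 0.22 with clusters of 1 symbol.

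The labels share replicate numbers between groups but do not say that they mark a batch, and a comparison has 2 pairs, so the number served as a replicate block only here. The difference between the first and second array of a group was correlated over clusters between groups, at 0.01 to 0.59. The lowest value was that of control prednisolone with vehicle labelled BTG1 shRNA, and the other pairs of groups gave 0.26 to 0.59. With the replicate block, 2 members passed for prednisolone in control cells (HSPB1, adjusted p 0.0229, and HSPA5, 0.0256), 14 between the populations under vehicle and 20 under prednisolone; over all clusters the counts were 755, 4553 and 4321, against 271, 2623 and 3134.

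Having 2 arrays in each group limits all tests, and dim clusters such as HSPA4L in control cells give no sure size of difference.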
